A study of Mus musculus with 2 samples.

Results

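The clustered protocadherins are 57 of the 21938 protein_coding genes of GENCODE M21 on chromosomes 1 to 19, X and Y. They are the protein_coding genes of chromosome 18 whose symbols begin with Pcdha, Pcdhb or Pcdhg, and they form 3 clusters of 14 alpha, 22 beta and 21 gamma genes. In GRCm38 coordinates the alpha cluster spans 36930184 to 37187661, the beta cluster 37264938 to 37524479 and the gamma cluster 37661793 to 37841873, all on the plus strand. The m6A sites of these genes were those inside their exons on the same strand, and numbered 641 of the 219409 sites listed in the brain of a newborn hybrid mouse.

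Clustered protocadherins are cadherin-like adhesion proteins of the neuronal surface. A neuron uses a small set of them, mostly by random choice of promoters, and the combination lets its branches recognise and avoid each other. In the alpha and gamma clusters each gene has its own large variable exon, which codes for the extracellular domain, the membrane segment and the start of the cytoplasmic tail, and this exon is spliced to constant exons that all genes of the cluster share. A beta gene has its whole coding sequence in 1 exon. The C-type members, Pcdhac1, Pcdhac2, Pcdhgc3, Pcdhgc4 and Pcdhgc5, sit at the 3′ ends of the alpha and gamma clusters and are used more evenly among neurons than the others.

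Sites came from GLORI (glyoxal and nitrite-mediated deamination), in which an unmethylated adenosine is turned into a base read as G whereas m6A is still read as A. Both libraries were made from poly(A)+ RNA, and the donor was a newborn (P0) F1r female born to a C57 mother and a PWK father. 1 library was from the cerebellum (79355 sites) and 1 from the cerebrum (188295 sites). The lists give positions without methylation rates, read counts or RNA levels, so a position that is not listed can be unmethylated, not expressed or too thinly covered. With 1 library per tissue no difference between the tissues was tested, and every interval below is a 95% Wilson interval that covers counting error over positions only.

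The tissue labels were checked on marker genes, because both files carry the abbreviation of the cerebellum in their names. All 10 forebrain markers had a DRACH site in the cerebrum and 3 of 10 in the cerebellum. Hindbrain markers with a DRACH site numbered 6 of 10 in the cerebellum and 2 of 10 in the cerebrum, and En1, En2, Barhl1 and Barhl2 had such sites in the cerebellum library but 0 in the cerebrum library. Zic1 had 14 DRACH sites in each library, and Zic2 had 6 in the cerebellum and 8 in the cerebrum. Atoh1, Pax2, Gabra6 and Pcp2 had 0 listed sites in both. Of the other cell types, the choroid plexus markers with a DRACH site numbered 0 and 1 of 4 in the cerebellum and the cerebrum, those of vessels and meninges 3 and 3 of 6, and those of microglia 2 and 3 of 3. The part of these cells in the protocadherin sites was not tested.

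In protocadherin exons the cerebellum list had 248 sites and the cerebrum list 588, of which 195 were at the same position in both. A DRACH 5-mer (written as DNA, where D stands for any base but C, R for a purine and H for any base but G, with the methylated A in the centre) was found at 199 of the cerebellum sites, or 80.2% (74.8% to 84.7%), and at 440 of the cerebrum sites, or 74.8% (71.2% to 78.2%). In the exons of other coding genes the DRACH share was 73.7% and 59.9%. Both of these values lay below the protocadherin intervals. The text below is on the 466 DRACH sites unless it says otherwise, of which 173 were listed in both libraries, 267 in the cerebrum only and 26 in the cerebellum only.

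Most protocadherins had a listed m6A site, and more of them than of coding genes at large. Counting DRACH sites in a gene's own exons and not in shared ones, 44 of 57 genes had a site in the cerebellum, against 34.3% of all coding genes, 49 had one in the cerebrum, against 44.3%, and 42 had a site in each library, against 32.9%. In 39 genes at least 1 site was at the same position in both. The genes with no site were 6: Pcdha11, Pcdhac1, Pcdhb1, Pcdhb3, Pcdhb10 and Pcdhga2. Of these Pcdhac1 was named as a C-type gene, and the rest lie outside the naming rule and are named because they are so few. All 6 also lacked sites outside DRACH.

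**Figure D1:**
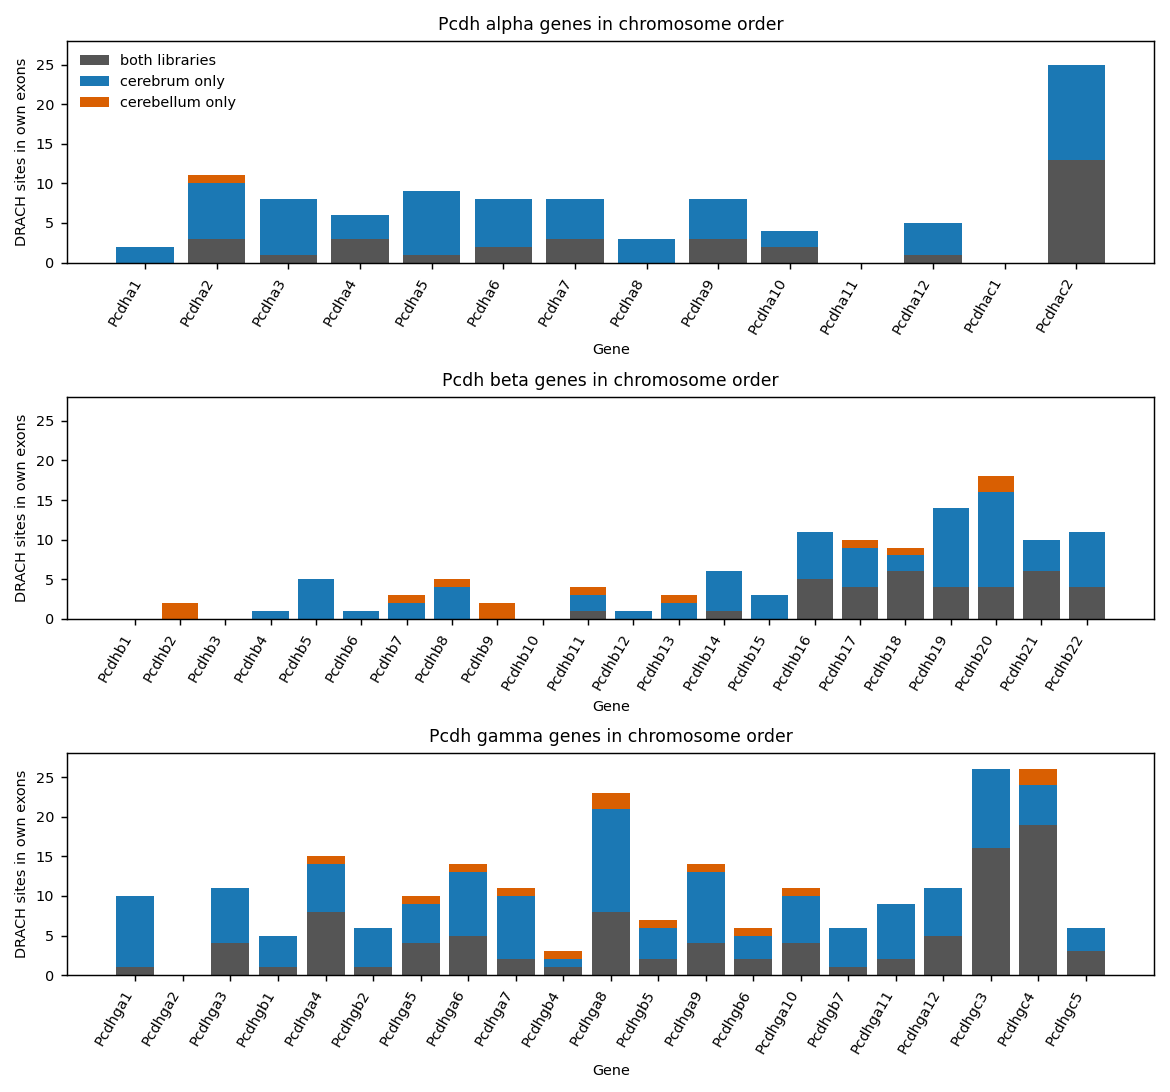
Number of DRACH m6A sites (vertical axis) in the own exons of each clustered protocadherin gene (horizontal axis, chromosome order), stacked by whether a site was listed in both libraries, in the cerebrum only or in the cerebellum only. Pcdhac2, Pcdhga8, Pcdhgc3 and Pcdhgc4 rise to between 23 and 26 sites, and the last 7 beta genes hold between 9 and 18 each.

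The cerebrum, with the longer list, held more sites in 48 of the 57 genes and the cerebellum in 2, while 7 genes had equal numbers. Of these 7, 6 had no DRACH site in either library and Pcdhgb4 had 2 in each. The 2 genes with more in the cerebellum were Pcdhb2 and Pcdhb9, each with 2 cerebellum sites and 0 cerebrum sites. They were 2 of the 51 protocadherins with a DRACH site. Of all coding genes with a DRACH site, 7.71% had more in the cerebellum. The share with more in the cerebrum was not worked out. Across the clusters there were 45.2 cerebellum sites per 100 cerebrum sites, against 58.1 in other coding genes. The ratio was 34.4 in alpha variable exons, 48.8 in gamma variable exons and 43.9 in beta genes. It was 75.0 in the alpha constant exons, which stood on 12 and 16 sites.

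Sites in the cerebellum were mostly also sites in the cerebrum. Of the 199 cerebellum DRACH sites 86.9% (81.5% to 90.9%) were in the cerebrum list, against 83.3% in other coding genes. Of the 440 cerebrum DRACH sites 39.3% (34.9% to 44.0%) were in the cerebellum list, against 48.4% elsewhere, which lay above the interval. Outside DRACH the shares were 44.9% (31.9% to 58.7%) and 14.9% (10.03% to 21.5%). By cluster, 32 of 33 cerebellum sites of the alpha variable exons and 93 of 106 of the gamma variable exons were shared, whereas 35 of 47 were shared in beta genes.

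The 14 alpha genes held 97 DRACH sites in their variable exons, with 33 in the cerebellum list and 96 in the cerebrum list, and Pcdhac2 alone accounted for 25. Pcdhac2 had 13 cerebellum and 25 cerebrum sites, and all 13 were also cerebrum sites. Pcdha2 followed with 4 and 10 sites, 3 of them in both, and held the 1 cerebellum-only site of the alpha variable exons. Pcdha5 had 1 and 9, Pcdha3 had 1 and 8, and Pcdha6 had 2 and 8. Cerebrum counts of these 4 genes thus lay close together, and Pcdha7 and Pcdha9 also reached 8 each.

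Of the 2 alpha C-type genes, which neighbour each other, Pcdhac2 had the most sites in its cluster and Pcdhac1 had none in 52 DRACH adenosines. Windows around all DRACH adenosines of Pcdhac1 and Pcdhac2 occurred at 1 place in the converted genome.

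The 22 beta genes held 119 DRACH sites, with 47 in the cerebellum list and 107 in the cerebrum list, and most lay at the 3′ end of the cluster. Pcdhb16 to Pcdhb22, which make up 7 genes, held 83 of them, or 69.7%, with 9 to 18 per gene, whereas Pcdhb1 to Pcdhb15 held 36 in 15 genes, with 0 to 6 per gene. This split was chosen after the counts had been seen. Pcdhb20 had 6 cerebellum sites and 16 cerebrum sites, of which 4 were in both. Pcdhb19 had 4 and 14, Pcdhb16 had 5 and 11, Pcdhb22 had 4 and 11, and Pcdhb17 had 5 and 9. Per 100 DRACH adenosines Pcdhb20 had 25.0 cerebrum sites (16 to 36.8), and Pcdhb19, with the next highest count but a longer exon, had 9.72 (5.88 to 15.7). Sites shared by both libraries numbered 33 in the last 7 genes and 2 in the other 15.

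In the coding sequence of Pcdhb1 to Pcdhb11 there were 4 cerebellum and 9 cerebrum sites in 544 DRACH adenosines, and 0 of them were shared. In Pcdhb12 to Pcdhb22 there were 25 and 65 in 574, of which 24 were shared. The cerebrum densities were 1.65 (0.873 to 3.11) and 11.3 (8.98 to 14.2) sites per 100 DRACH adenosines.

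The 21 gamma genes held 230 DRACH sites in variable exons, 106 in the cerebellum and 217 in the cerebrum. Pcdhgc3, which is also known to be expressed outside the nervous system, had 16 cerebellum and 26 cerebrum sites, and its 16 were all shared. Pcdhgc4, an isoform known to be needed for the survival of inhibitory neurons, had 21 and 24, of which 19 were shared. These were the 2 highest counts of all protocadherins in the cerebellum. Pcdhga8 followed with 10 and 21, of which 8 were shared, and had 2 sites in the cerebellum only. Pcdhga4 had 9 and 14, and Pcdhga6 had 6 and 13. The third gamma C-type gene, Pcdhgc5, had 3 and 6 sites, and its 3 were shared.

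The C-type variable exons together had more sites per DRACH adenosine than the other variable exons, and most of these sites lay in 3 of the 5 genes. Pcdhgc3, Pcdhgc4 and Pcdhac2 held 50 of the cerebellum sites in own exons, or 26.9%, and 75 of the cerebrum sites, or 17.9%. Per 100 DRACH adenosines of the whole variable exon, Pcdhgc4 had 35.0 cerebellum sites (24.2 to 47.6) and 24 of its 60 DRACH adenosines were cerebrum sites (28.6 to 52.6 per 100). Pcdhgc3 had 26.7 (17.1 to 39.0) and 43.3 (31.6 to 55.9), and Pcdhac2 had 19.4 (11.7 to 30.4) and 37.3 (26.7 to 49.3). The intervals of these genes overlapped each other in both libraries. Pcdhgc5 was lower, with 5.77 (1.98 to 15.6) and 11.5 (5.40 to 23). A high density was not limited to C-type genes. Pcdhga8, the highest of the other variable exons, had 14.5 (8.07 to 24.7) and 30.4 (20.8 to 42.1). Its intervals overlapped those of Pcdhgc3 and Pcdhac2 in both libraries. Over all 5 genes the C-type exons had 18.2 cerebellum sites per 100 DRACH adenosines (14.2 to 23.1) and 27.8 cerebrum sites (23 to 33.2), whereas the other variable exons had 5.24 (4.26 to 6.42) and 14.1 (12.5 to 15.9). The ratio of cerebellum to cerebrum sites was 65.4 per 100 in C-type exons and 37.1 per 100 in the other variable exons.

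Within the gamma cluster the B subfamily had the lower site densities. Pcdhga exons had 7.11 cerebellum sites per 100 DRACH adenosines (5.50 to 9.14) and 16.9 cerebrum sites (14.4 to 19.7). Pcdhgb exons had 3.59 (2.02 to 6.32) and 9.80 (6.95 to 13.7). The cerebrum intervals did not overlap and the cerebellum intervals did. Between 82.4% and 95.7% of the DRACH windows of each Pcdhgb gene occurred once in the converted genome, against 100% in every Pcdhga gene. Repeated windows held no site, and this comparison was not limited to unique windows, so part of the gap can come from them. That part was not tested.

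By kind of exon, the variable first exons held 97 alpha and 230 gamma DRACH sites, the alpha constant exons 16, the gamma constant exons 0, the beta genes 119 and all other exons of these genes 4. To set exons of different length side by side, DRACH sites were divided by all DRACH adenosines of the same exons. Over all genes this gave 4.85 cerebellum and 14.1 cerebrum sites per 100 DRACH adenosines in alpha variable exons, 8.47 and 17.3 in gamma variable exons, and 2.56 and 5.82 in beta genes. The intervals were 3.47 to 6.73 and 11.7 to 16.9 for alpha, 7.05 to 10.1 and 15.3 to 19.5 for gamma, and 1.93 to 3.38 and 4.84 to 6.98 for beta. Over all genes and whole exons beta genes thus stood below both other clusters in each library, while the cerebrum intervals of alpha and gamma overlapped. The cerebellum gap between beta and alpha depended on the setting. Over the coding part only, the intervals were 1.81 to 3.7 in beta and 3.62 to 7 in alpha, which overlap. In genes with a DRACH site in the library those of 2.74 to 4.8 and 4.74 to 9.12 also overlapped. The intervals stayed apart for unique 100-nt windows, for genes with a listed site and for sites of both libraries. Counting only positions listed in both libraries, the values were 4.70 in alpha, 7.43 in gamma and 1.9 in beta genes.

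For a comparison with other genes only genes with a DRACH site in the library were kept on both sides. In other genes the site could lie in any exon. In protocadherins it had to lie in an own exon and not a shared one, which is a stricter rule. Long first coding exons (1000 nt or more) of other genes then had 14.1 cerebellum and 20.3 cerebrum sites per 100 DRACH adenosines. Alpha variable exons had 6.60 (4.74 to 9.12) and 16.3 (13.6 to 19.5), and gamma variable exons had 8.94 (7.44 to 10.7) and 18.3 (16.2 to 20.6). With all alpha genes kept, since all share constant exons with sites, the alpha values were 4.85 and 14.1. The cerebellum values of both clusters lay below those of other genes. In the cerebrum the interval of gamma took in the value of other genes and that of alpha did not. The values of other genes include noncoding parts of these exons. Over their coding parts only they were 16.2 and 23.15, above the whole-exon intervals of both clusters in each library. Genes with 1 exon elsewhere had 12.5 and 16.7, against 3.63 (2.74 to 4.8) and 7.06 (5.87 to 8.46) in beta genes. Within the C-type exons, of which Pcdhac1 had no site and was thus left out, the values were 22.2 (17.4 to 27.9) and 33.9 (28.2 to 40.1), above the long first coding exons in both libraries. With Pcdhac1 kept they were 18.2 (14.2 to 23.1) and 27.8 (23 to 33.2), still above the whole long first coding exons. These last intervals took in the coding-part values of other genes. RNA levels are not in these lists, so fewer listed sites and fewer reads per gene cannot be told apart.

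**Figure D2:**
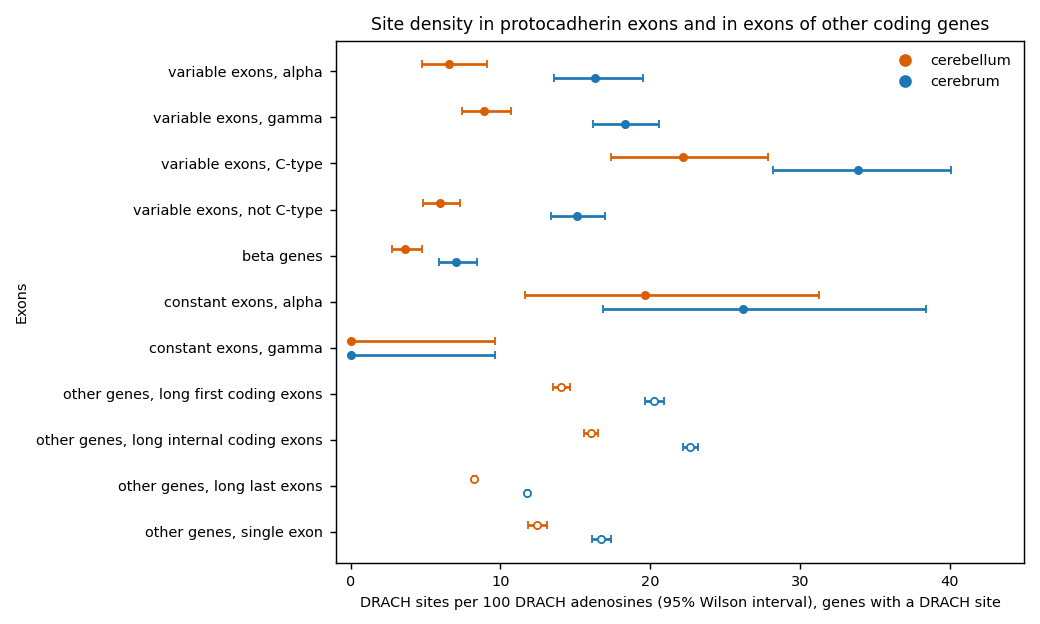
DRACH sites per 100 DRACH adenosines (horizontal axis) in the exons of clustered protocadherins (filled points) and of other coding genes (open points), for genes with a DRACH site in the library (for variable exons and beta genes, in an own exon), with bars for the 95% Wilson interval over adenosines. C-type variable exons, drawn without Pcdhac1, which had no site, have the highest points at 22.2 in the cerebellum and 33.9 in the cerebrum. Their intervals overlap those of the alpha constant exons, which lie at 19.7 and 26.2. With Pcdhac1 kept the C-type values are 18.2 and 27.8. Gamma constant exons lie at 0.

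The constant exons set the alpha and gamma clusters apart. Each cluster has 3 of them, of 59, 89 and 2712 nt in alpha and 59, 89 and 1971 nt in gamma, shared by all 14 and all 21 genes. The last exon holds the end of the coding sequence and the 3′ UTR (GRCm38, chromosome 18, 37184946 to 37187657 in alpha and 37839903 to 37841873 in gamma). In the alpha constant exons 12 cerebellum and 16 cerebrum DRACH sites were listed among 61 DRACH adenosines, which is 19.7 (11.6 to 31.3) and 26.2 (16.8 to 38.4) per 100. In the gamma constant exons the count was 0 of 36 DRACH adenosines in each library, with a Wilson upper limit of 9.64 per 100. By the rule that a count of 0 allows up to 3 counts, the limit is 8.33 per 100.

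All 16 alpha sites lay in the last exon. The 3 in the coding sequence, at 37185005, 37185019 and 37185129, were listed in both tissues. The other 13 lay in the 3′ UTR between 298 and 1832 nt downstream of the stop codon, and 9 of them were listed in both tissues. The 4 cerebrum-only sites lay 708, 858, 865 and 1832 nt after the stop codon. By 5-mer, 4 of the 5 AGACT adenosines were cerebrum sites, as were all 3 GGACC and the 1 GGACT, against 1 of 8 TAACA.

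Of the 10 DRACH 5-mers that had a site in the alpha constant exons, 9 also occur in the gamma constant exons, all but TAACA, with 20 adenosines in all. Among them are 6 GGACC, 1 GGACT, 1 AGACT and 2 AAACT, and 0 were listed. In the last gamma exon 2 positions outside DRACH were listed, 1 in both libraries at 644 nt after the stop codon and 1 in the cerebrum only, 16 nt before the end of the exon. The read coverage of the DRACH adenosines of this exon is not known from the lists. Among other coding genes, last exons of 1000 nt or more with at least as many DRACH adenosines, in genes with 10 or more DRACH sites elsewhere, had no DRACH site in 4.19% of cases (8 of 191) in the cerebellum and 2.87% (10 of 349) in the cerebrum. The variable exons of the 21 genes that share the gamma exon held 106 and 217 sites, a sum over genes, whereas the comparison took each other gene alone.

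**Figure D3:**
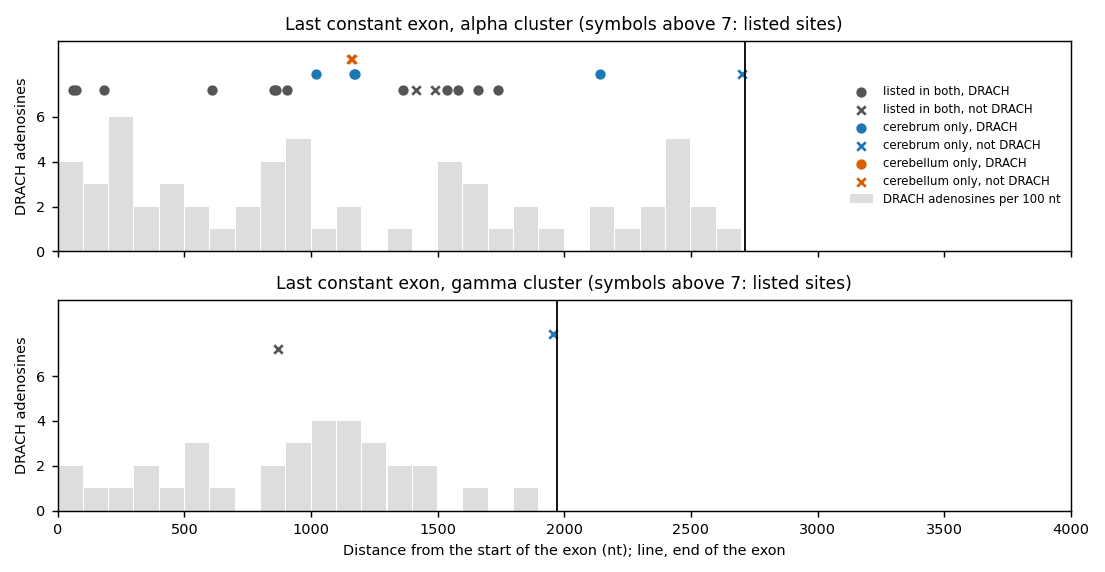
Last constant exon of the alpha and gamma clusters, with the distance from its start on the horizontal axis, DRACH adenosines per 100 nt as grey bars and listed sites as symbols above them, circles for DRACH and crosses for other 5-mers. The alpha exon carries 16 circles and the gamma exon none, although grey bars run along both.

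Along the protein, coding sites lay mostly in the part of the exon that codes for the extracellular domain. The most hydrophobic stretch of 19 residues in the later part of each protein was taken as the membrane segment. Of 2619 coding DRACH adenosines before it 340 were cerebrum sites, or 13 per 100 (11.7 to 14.3), and of 279 after it 33 were, or 11.8 (8.55 to 16.1). These intervals overlapped, so most sites and most DRACH adenosines alike lay on the extracellular side. After the segment the cerebrum intervals of alpha and gamma did not overlap. There, gamma had 25.8 cerebrum sites per 100 (18.1 to 35.3) against 17.7 before it (15.5 to 20.1), whereas alpha had 3.77 (1.04 to 12.8) against 15 (12.4 to 18.1). In the cerebellum, 0 of 53 DRACH adenosines beyond the segment were sites in alpha and 11 of 97 were in gamma. Beta genes had 4.65 cerebrum sites per 100 after the segment (2.15 to 9.78) and 6.80 before it (5.39 to 8.54).

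**Figure D4:**
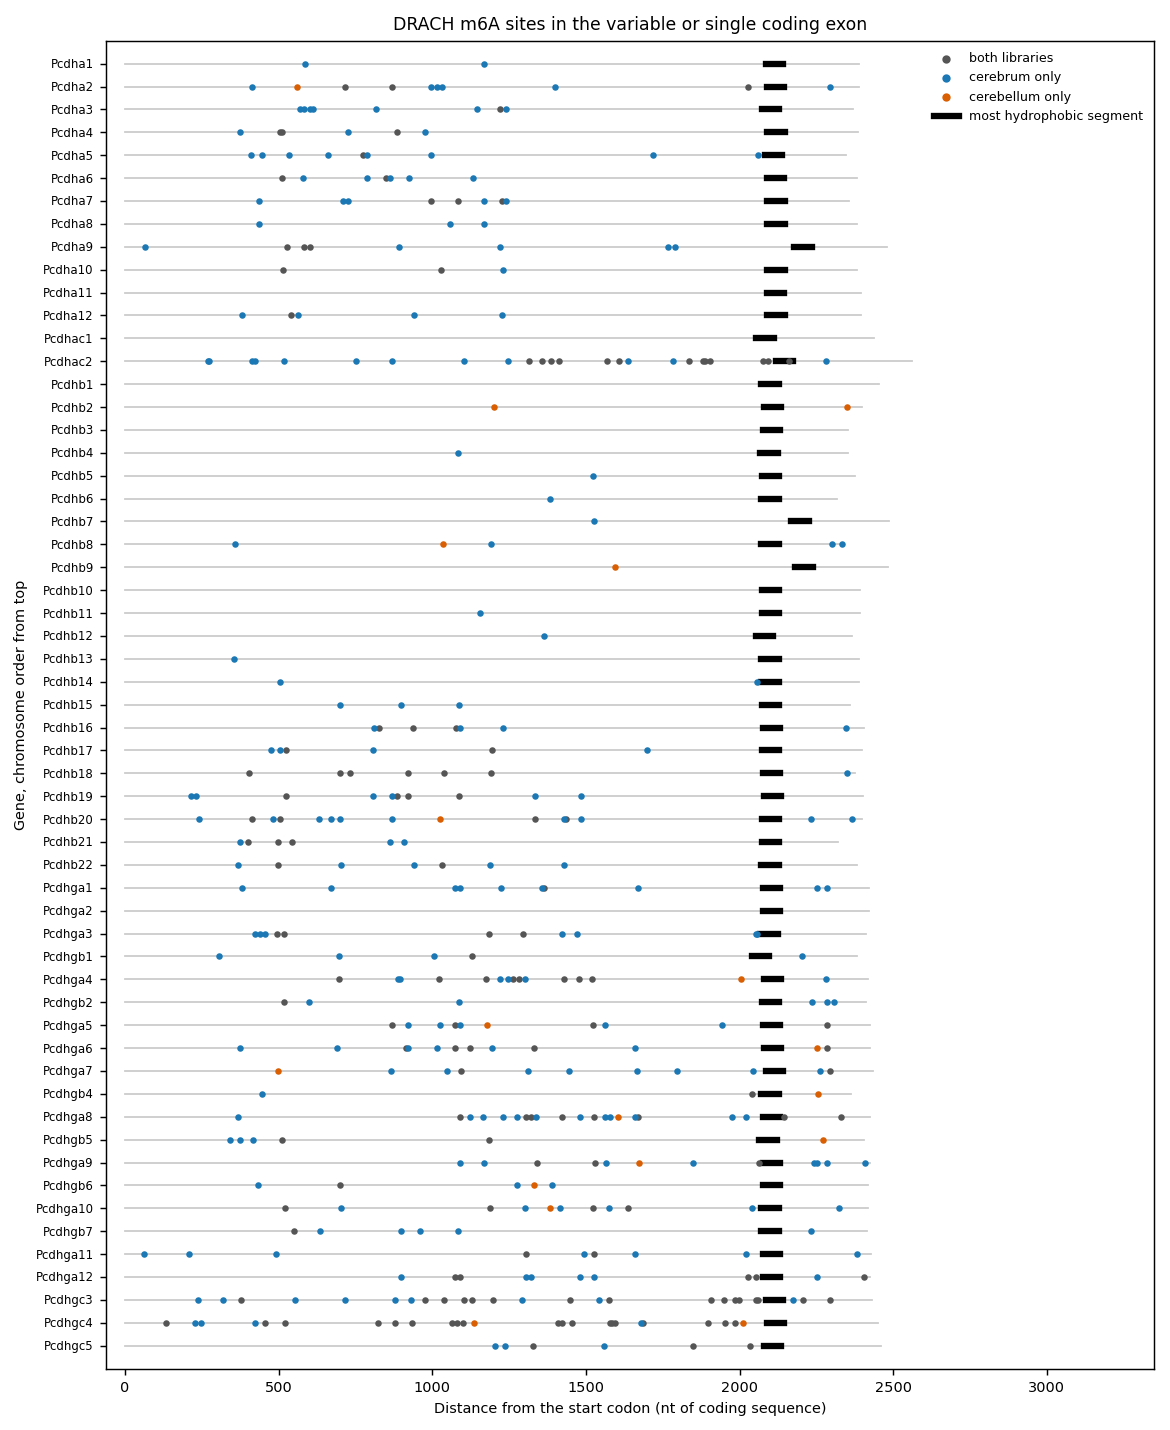
Position of each DRACH m6A site in the coding sequence of the variable or single coding exon, in nt from the start codon (horizontal axis), with 1 line per gene in chromosome order (vertical axis) and the most hydrophobic segment in black. Grey points are in both libraries, blue in the cerebrum only and orange in the cerebellum only, and the first 500 nt hold 50 cerebrum sites.

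Over the 3 clusters together, the start of the coding sequence had the fewest sites per DRACH adenosine. In genes with a site, the first 500 nt had 2.27 cerebellum sites per 100 DRACH adenosines (1.24 to 4.13) and 9.86 cerebrum sites (7.56 to 12.8), against 10.3 (8.12 to 13.1) and 19.2 (16.3 to 22.5) from 1000 to 1500 nt. From 1500 to 2000 nt the values were 6.77 (4.78 to 9.50) and 11.1 (8.6 to 14.2), and the cerebrum interval overlapped that of the first 500 nt. In beta genes that stretch had 1 cerebellum and 3 cerebrum sites in 105 and 122 adenosines. This was 0.952 and 2.46 per 100, below the 3.05 and 6.54 of the first 500 nt of beta genes. In alpha the lowest cerebrum value was 10.8, beyond 2000 nt, against 11.2 in the first 500 nt. By cluster, the cerebrum intervals of the first and the next 500 nt overlapped in alpha, in beta and in gamma. These bins of 500 nt were chosen after the positions had been seen.

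Next to the splice donor, in the last 100 nt of the variable exons, sites were few. Of the DRACH adenosines there, 2 of 61 were cerebellum sites, or 3.28 per 100 (0.904 to 11.2), and 6 of 67 were cerebrum sites, or 8.96 (4.17 to 18.2). Both intervals took in the density of the whole variable exons in genes with a site, 8.24 and 17.6. In the next 100 nt the densities were 14.3 (7.10 to 26.7) and 34.0 (22.4 to 47.8), and the 17 cerebrum sites were all in gamma exons. Long first coding exons of other genes had 8.65 and 13 in the last 100 nt and 16 and 23 in the next. Variable exons differed from these at 500 to 600 nt from the donor, where 3 of 54 adenosines were cerebrum sites, or 5.56 per 100 (1.91 to 15.1), against 24.9 in other genes, a bin singled out after its value was seen. Over the last 200 nt instead of 100 nt the cerebrum density of variable exons was 19.7.

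**Figure D5:**
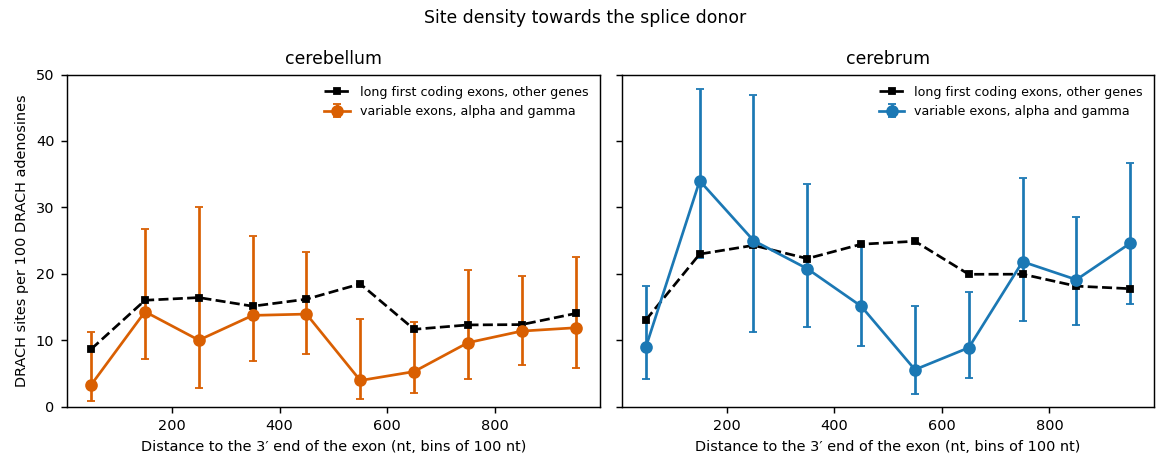
DRACH sites per 100 DRACH adenosines (vertical axis) by distance to the 3′ end of the exon (horizontal axis, bins of 100 nt) in alpha and gamma variable exons, with 95% Wilson intervals, and in long first coding exons of other genes as black squares. Both fall in the last 100 nt, to 8.96 and 13 in the cerebrum, and the variable exons also dip to 5.56 between 500 and 600 nt.

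Beta transcripts end in their own 3′ UTR, and sites there were densest in the first 200 nt after the stop codon. Of the 119 beta sites 79 were in the coding sequence, 36 in the 3′ UTR and 4 in the 5′ UTR. In genes with a site, the first 200 nt after the stop codon had 14.3 cerebellum sites per 100 DRACH adenosines (7.10 to 26.7) and 22 cerebrum sites (13.4 to 34.1). Farther into the 3′ UTR the values were 2.10 (1.14 to 3.82) and 3.15 (1.98 to 4.99), and in the coding sequence 4.05 (2.83 to 5.76) and 8.61 (6.92 to 10.7). The stretch after the stop codon thus stood above the rest of the 3′ UTR in both libraries, with a limit of 200 nt that was set with the positions known.

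The proteins were aligned within each cluster to ask whether the same codon was methylated in several genes. The median identity of pairs was 75.0% in alpha, 69.2% in beta and 45.8% in gamma. Of 392 coding DRACH sites 205, or 52.3%, lay at an aligned position where another gene of the cluster also had a site, 33.0% in alpha, 47.4% in beta and 62.3% in gamma. Gamma, with the lowest median identity, had the largest of these shares and also the most sites. The share that site density and shared motifs alone would give was not worked out. These shares therefore do not show a preference for the same codon. Of 115 aligned positions with a DRACH in 8 or more genes of a cluster, 51 had no site in any gene.

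The most repeated position lay at residues 362 to 369 of the gamma proteins. There, 9 of 14 gamma genes with a DRACH at that codon had a site, all 9 in the cerebrum and 4 in the cerebellum. At residues 761 to 765, in the cytoplasmic tail, 7 of 9 gamma genes had a site, and at residues 433 to 438 all but 1 of 7. In alpha the most repeated positions had 4 sites, and 1 of them, at residues 171 to 201, was listed in both libraries in Pcdha4, Pcdha6, Pcdha9 and Pcdha10. In 1 alignment of all 57 proteins, 11 positions had a site in each of the 3 clusters, and the gamma position above gained 4 beta genes, Pcdhb4, Pcdhb15, Pcdhb16 and Pcdhb19, for 13 of 30. Many shared motifs had few sites. A DRACH held by 53 of the 57 genes, most often as GAACA, had a site in 6 of them.

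The 5-mers of the 440 cerebrum sites were led by GGACA (61 sites), AGACT (54) and GAACT (47), and those of the 199 cerebellum sites by AAACT and AGACT (24 each). Occupancy was counted in own exons of genes with a site and set against long first and internal coding exons of other genes. In the cerebrum 26.0% of AGACT adenosines (20.3% to 32.7%) were sites, against 42.4% elsewhere, 24.2% of GAACT (18.6% to 30.8%) against 44.3%, and 19.4% of GGACT (14.3% to 25.6%) against 42.7%. For GGACA the values were 19.4% (15.4% to 24.1%) and 33.5%. Of all 18 DRACH 5-mers, 11 had an interval below the value of other genes in the cerebrum and 12 in the cerebellum, and 0 had one above it. The own exons pool alpha and gamma variable exons with whole beta genes, 3′ UTRs included, and 5-mers were not split by cluster. In the cerebrum beta genes gave 1516 of the adenosines, with 7.06 sites per 100, against 16.3 in alpha and 18.3 in gamma. For the other 7 in the cerebrum the interval took in the value elsewhere, and among these TGACA had 11.4% (8.37% to 15.4%) against 12.7%, and GAACA 15.1% (10.4% to 21.3%) against 19.5%. TAACC had 0 sites in 75 adenosines in the cerebrum, against 1.13% elsewhere.

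Outside DRACH lay 175 sites, of which 22 were in both libraries, 126 in the cerebrum only and 27 in the cerebellum only. The most frequent 5-mers were GTACT (14), GCACT (11), GGACG (10), CAACT (8) and TTACT (8), each differing from DRACH at 1 base. GGATT had 6 sites, 4 of them in both libraries. 1 site lay where GRCm38 has no A. It was in Pcdhga11 at 37757291, a G in the reference, and was listed in the cerebellum only.

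Because members resemble each other, each window of 100 nt with every A turned to G, as GLORI reads it, was looked up in the converted genome. Over all protocadherin exon bases 97% of windows occurred once, 91.6% in alpha variable exons, 97.2% in gamma variable exons, 98.4% in beta genes and 100% in constant exons. All 641 sites lay in windows that occurred once. Thus the repeated windows held 0 sites, and the densities above still count the DRACH adenosines of repeated windows. Their share was highest in Pcdha6 and Pcdha7, where 77.4% and 77.1% of DRACH windows occurred once.

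Proteins that act on these clusters or bind their products were listed as well. Of 22 such genes 17 had a DRACH site in the cerebellum and 19 in the cerebrum, against 34.3% and 44.3% of coding genes. Ctcf, whose product binds protocadherin promoters and enhancers, had 4 and 11 sites, Nipbl, a loader of cohesin, had 19 and 24, and Rad21, a cohesin subunit, had 0 and 7. Smchd1, a chromatin repressor of the clusters, had 3 and 6, and Setdb1, a histone methyltransferase, 14 and 16. Among partners of the cytoplasmic tail, the kinase gene Ptk2 had 9 and 16, Ptk2b had 0 and 5, and Abi2, of the WAVE complex, 16 and 20. More cerebellum than cerebrum DRACH sites were listed for Fyn (11 and 9), Abi1 (4 and 1) and Smc1a (1 and 0). Over all listed sites none of the 3 had more in the cerebellum, with 11 and 12, 4 and 4, and 2 and 5. Nckap1 had 4 in each library and Stag2 1 in each. The genes of this list named here fall outside the naming rule. Dnmt3b and Ret had 0 in both.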

How the data were processed

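GLORI was performed on 2 poly(A)+ RNA samples, and the authors called m6A sites with GLORI-tools v.1.0 on mm10 and on PWK-mm10, united both sets, and required a rate over 0.1 and over 8 reads. The deposited values used here are genomic positions with strand (no other unit), so sequencing depth is unknown.

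Sites were placed on GENCODE M21 exons and GRCm38 sequence. This differs from the annotation release that the study names. Pcdhgb8 is a polymorphic pseudogene there and was not a member, and ENSMUSG00000007440, called Pcdha11 in GENCODE M21, was called Pcdha10 after RefSeq. A constant exon was shared by 3 or more genes, and its sites were counted once. Genes were named by rule: in each cluster the 5 with the most DRACH sites in own exons and the 1 with the most cerebellum-only sites (ties by symbol), all C-type genes, and genes without a site if 5 or fewer. Members, lists and rules were chosen with earlier results of these data known. Proteins were aligned with mafft 7.526, and membrane segments came from Kyte-Doolittle hydropathy. Background exons were those of other coding genes, without 3 genes that overlap member exons. Steps were tested on simulated data, where the 5-mer and region of 1140 planted positions were recovered for 99.9%. Computations used Python 3.11.15, numpy 2.4.6, pandas 2.3.3, numba 0.67.0 and biopython 1.88, and figures matplotlib 3.10.9.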

Additional observations from a re-analysis of the deposited data

How the results depend on the processing

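Of 59 recalculations over 21 results, 47 stayed inside the interval of the reported value or, for counts, within 1.5 times of it. No result left these bounds where sites or adenosines were limited to unique 100-nt windows, to the coding part or to exons of coding transcripts or where positions within 1 nt counted as shared. All sites and all constant-exon bases lay in unique windows. That limit thus could not change a site count, a share of sites or a constant-exon density. Limited to sites of both libraries, the DRACH share was 88.7% in each, and the cerebrum values per 100 DRACH adenosines were 4.70 in alpha variable exons and 7.43 in gamma variable exons, and the beta value was 1.9 in each library. Over all listed sites instead of DRACH sites, 78.6% of cerebellum and 33.2% of cerebrum sites were shared. Limited to beta genes with a listed site, the beta densities were 3.45 and 7.06. Over 200 nt instead of 100 nt, the cerebrum density at the end of variable exons was 19.7. In 1 alignment of all proteins, an alternative chosen after seeing the data, 64.8% of coding sites shared a position.

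Intervals treat positions as independent, although sites of 1 transcript share its reads. No paired analysis was possible because each tissue has 1 library. The lists hold neither rates nor reads, so methylation and coverage cannot be told apart, and densities over all genes include genes with no listed site.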
